A study of Mus musculus with 16 samples.

Results

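Mitochondrial fatty acid beta-oxidation was followed through 10 genes, Acsl1, Cpt1b, Slc25a20, Cpt2, Acadvl, Acadl, Acadm, Hadha, Hadhb and Etfdh, in gastrocnemius muscle of normal and tumor-bearing mice. The genes were taken by symbol from a list of fatty acid activation, carnitine shuttle and beta-oxidation genes. The list itself uses no measured value, although it was drawn up with earlier results of these data known, and all 10 were found among the 21923 genes of the count table. Skeletal muscle burns long-chain fatty acids in its mitochondria. An acyl-CoA synthetase first activates the fatty acid, the carnitine shuttle carries it across the inner membrane, and a repeating cycle of dehydrogenation, hydration, dehydrogenation and thiolysis then shortens the chain and releases acetyl-CoA for the citric acid cycle. The acyl-CoA dehydrogenases pass their electrons through electron transfer flavoprotein and its ubiquinone oxidoreductase to the respiratory chain. Many of these genes are known targets of the PPAR and estrogen-related receptor families.

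The mice were adults and formed 4 groups of 4. The NOR mice received PBS instead of tumor cells. The CAC mice carried a subcutaneous tumor and were injected daily with PBS from day 9. The AM mice, whose libraries are titled T, carried the same tumor and were injected daily with amiloride at 2 mg/kg from day 9. Amiloride is a sodium channel and sodium-proton exchanger blocker that was used here for its effect on exosome release. The KD mice carried tumor cells whose Rab27 expression had been knocked down with lentiviral shRNA, and like the NOR mice they received PBS from day 9. Rab27 proteins take part in exosome release. The knock-down was made in the tumor cells, so its efficiency cannot be read from muscle RNA. All muscles were removed on day 30. Within every group, mice 1 and 2 are labelled C57BL/6, for which the tumor was LLC lung carcinoma, and mice 3 and 4 are labelled BALB/c, for which the tumor was CT26 colon carcinoma. Strain and tumor line therefore cannot be told apart, and each mouse is named below by its group and number. The questions were whether muscle of CAC mice differed from that of NOR mice, and whether AM and KD mice differed from CAC mice.

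Poly(A) RNA of each muscle gave 35913190 to 61032708 counts over genes, and the 10 genes took 0.192 to 0.313% of them. Levels are given as CPM, the count scaled to a common library size after TMM normalisation, unless another scale is named. The TMM factor, which corrects for RNA composition, was 0.852 to 1.24, and the highest was that of CAC-3. Several libraries stood apart. The summed level of 12 muscle fibre genes ranged from 155893 to 226436 CPM in NOR mice and 81638 to 176538 CPM in CAC mice. It was 146752 to 183842 CPM in AM mice and 128555 to 213980 CPM in KD mice. CAC-3 had the lowest value and NOR-1 the highest. The summed level of 15 B and T lymphocyte genes ranged from 1.10 CPM in KD-3 to 719 CPM in AM-1. NOR-1 was at 5.28 CPM for these genes and the other NOR mice at 358 to 392 CPM. Alb, the liver albumin gene, was at 1208 CPM in AM-1 and at 15.4 CPM or less elsewhere, and Ucp1, the brown fat uncoupling protein gene, was at 40.8 CPM in KD-1 and 16.6 CPM in AM-1. KD-3 had no counts for any of 4 Y-linked genes. KD-3 was among the highest 3 mice for 9 of the 10 genes. The labels and the study's supplement give BALB/c mice of both sexes and male C57BL/6 mice, whereas its methods give males only, and no label gives the sex of a single mouse. Nnt, known to carry a deletion in the C57BL/6J substrain, was at 94.7 to 315 CPM in CAC-4, AM-1, AM-3 and KD-1 and at 27.0 to 81.7 CPM in the other 12 mice, so its level did not follow the strain labels. Medians over the 10 genes and the main contrasts are also given without some of these libraries.

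By level per transcript length, Acsl1, the long-chain acyl-CoA synthetase, and Cpt1b, the muscle form of carnitine palmitoyltransferase 1, stood at the top of the 10. Mean deposited FPKM over all 16 mice was 215 ± 67.2 (SD) for Acsl1, 198 ± 37.3 for Cpt1b and 188 ± 23.6 for Acadm, the medium-chain acyl-CoA dehydrogenase. Next came Acadvl, the very-long-chain acyl-CoA dehydrogenase, at 155 ± 19.7, Hadhb at 127 ± 21.9, Acadl, the long-chain acyl-CoA dehydrogenase, at 113 ± 22.7, and Hadha at 99.4 ± 18.3. Hadha and Hadhb encode the alpha and beta subunits of the mitochondrial trifunctional protein. The lowest were Cpt2, the inner-membrane carnitine palmitoyltransferase, at 71.0 ± 13.8, Etfdh, the electron transfer flavoprotein dehydrogenase, at 52.4 ± 7.11, and Slc25a20, the carnitine-acylcarnitine translocase, at 37.1 ± 3.55. Only 323 genes (1.47%) had a higher mean FPKM than Acsl1, and 1995 (9.10%) a higher one than Slc25a20. The order of all 10 was the same on TPM.

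Every pair of neighbours in that order overlapped in range over the 16 mice, and no test was made between neighbours. Within a mouse the lower part of the order held throughout: Hadha was above Cpt2, Cpt2 above Etfdh and Etfdh above Slc25a20 in 16 of 16 mice. Acadm was above Acadvl and Acadvl above Hadhb in 16 of 16 as well. Acsl1 was above Cpt1b in 8 of 16 mice only, and Cpt1b above Acadm in 11 of 16. The position of Acadl varied with the group: by mean FPKM it was the seventh of the 10 in NOR, below Hadhb and Hadha, and the fifth in CAC, above both. Its mean FPKM in NOR was 91.3 ± 10.2 (SD, n = 4). CAC mice had 125 ± 19.7, AM mice 117 ± 21.8 and KD mice 119 ± 26.5.

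The genes lie on 8 chromosomes, and Hadha and Hadhb are neighbours. In the GENCODE annotation of GRCm38, Hadha (ENSMUSG00000025745) lies on the minus strand of chromosome 5 from 30118304 to 30155162. Hadhb (ENSMUSG00000059447) lies on the plus strand from 30155248 to 30184593. The 2 genes thus start head to head with 85 bases between them, whereas their RefSeq starts are 273 bases apart. That interval is printed first because the levels of the 2 genes varied together from mouse to mouse. The 250 bases before the RefSeq starts of Acadl, Acadvl and Acadm follow because the ratio of Acadl to the other 2 dehydrogenases differed between groups. All are from GRCm38, the last 3 from RefSeq (GRCm38.p6), and are written 5′ to 3′ on the strand given. Capitals mark GGGCGG, a GC box core, or AGGTCA, the core half-site of many nuclear receptors, or the same letters read on the opposite strand (CCGCCC or TGACCT).
Hadha to Hadhb, chr5:30155163-30155247, plus strand: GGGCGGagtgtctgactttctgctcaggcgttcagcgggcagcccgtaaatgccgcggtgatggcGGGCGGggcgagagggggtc
Acadl, chr1:66863310-66863559, minus strand: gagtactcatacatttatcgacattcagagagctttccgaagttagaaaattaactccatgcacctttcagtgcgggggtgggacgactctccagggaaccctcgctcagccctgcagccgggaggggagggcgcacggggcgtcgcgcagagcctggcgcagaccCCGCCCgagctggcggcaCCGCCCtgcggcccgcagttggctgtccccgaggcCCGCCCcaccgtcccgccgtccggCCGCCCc
Acadvl, chr11:70015429-70015678, minus strand: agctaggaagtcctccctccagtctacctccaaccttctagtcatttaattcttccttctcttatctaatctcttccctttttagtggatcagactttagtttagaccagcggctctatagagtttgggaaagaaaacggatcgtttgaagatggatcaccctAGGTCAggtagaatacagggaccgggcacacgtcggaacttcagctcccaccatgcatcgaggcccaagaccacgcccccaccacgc
Acadm, chr3:153944644-153944893, minus strand: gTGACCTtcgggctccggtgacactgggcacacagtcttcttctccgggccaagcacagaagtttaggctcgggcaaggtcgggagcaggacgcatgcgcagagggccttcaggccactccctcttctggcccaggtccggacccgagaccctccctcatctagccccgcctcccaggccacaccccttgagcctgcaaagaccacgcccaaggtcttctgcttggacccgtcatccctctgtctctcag

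The interval between Hadha and Hadhb had a GC content of 69.4% and held GGGCGG at 2 places. The Acadl sequence had a GC content of 68.0% and held the same 6 letters at 4 places on the opposite strand, while the Acadvl sequence (49.6% GC) and the Acadm sequence (64.0% GC) held none and had 1 AGGTCA each. RefSeq windows were matched for 9 of the 10 genes, Cpt1b being the exception. In the 250 bases before a start, on either strand, GGGCGG was found for 6 of the 9 and AGGTCA for 2. The shares among the 32851 promoter windows of the table were 32.7% and 14.0%, while the 9 genes had 10 windows. The Hadha and Hadhb windows overlap, and the only Hadha match is also a Hadhb match, so 1 site counts for both genes. These matches describe letters and not binding.

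Other transcripts overlap some of the genes, and whether reads were counted by strand is not stated. Cpt1b (ENSMUSG00000078937, chromosome 15, 89416405 to 89425863, minus strand) shared 79.7% of its 31-base words with Gm44502, a read-through model that has no line in the count table. Acadvl (ENSMUSG00000018574, chromosome 11, 70010183 to 70015411, minus strand) shared 33.2% with Dvl2 on the opposite strand, which was at 11.6 to 17.7 CPM. Acadl (ENSMUSG00000026003, chromosome 1, 66830839 to 66863277, minus strand) and Cpt2 (ENSMUSG00000028607, chromosome 4, 107903981 to 107923610, minus strand) shared none. The other positions are chromosome 8, 46471037 to 46536051, plus strand for Acsl1 (ENSMUSG00000018796), chromosome 9, 108662088 to 108684641, plus strand for Slc25a20 (ENSMUSG00000032602), chromosome 3, 153922357 to 153944632, minus strand for Acadm (ENSMUSG00000062908) and chromosome 3, 79603788 to 79629500, minus strand for Etfdh (ENSMUSG00000027809).

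Between the mice with the highest and the lowest CPM the level differed 1.63-fold for Etfdh and 2.58-fold for Cpt1b, with the other 8 genes between them. The same few mice took the ends. CAC-3 had the lowest level of 7 of the 10 genes, and AM-3 the highest of 6 and KD-3 of 3. The mean z-score over the 10 genes was 1.45 in AM-3, 1.45 in KD-3 and 0.76 in KD-1, against -1.57 in CAC-3, -1.01 in NOR-3 and -0.91 in AM-1. High and low mice therefore occurred within the same group, as AM-1 and AM-3 did. On total counts without TMM, CAC-3 was the lowest mouse for Cpt1b (238 CPM) and Hadhb (168 CPM) only, while its Acsl1 level of 467 CPM was among the highest, and the 10 genes together took 0.222% of its counts.

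**Figure D1:**
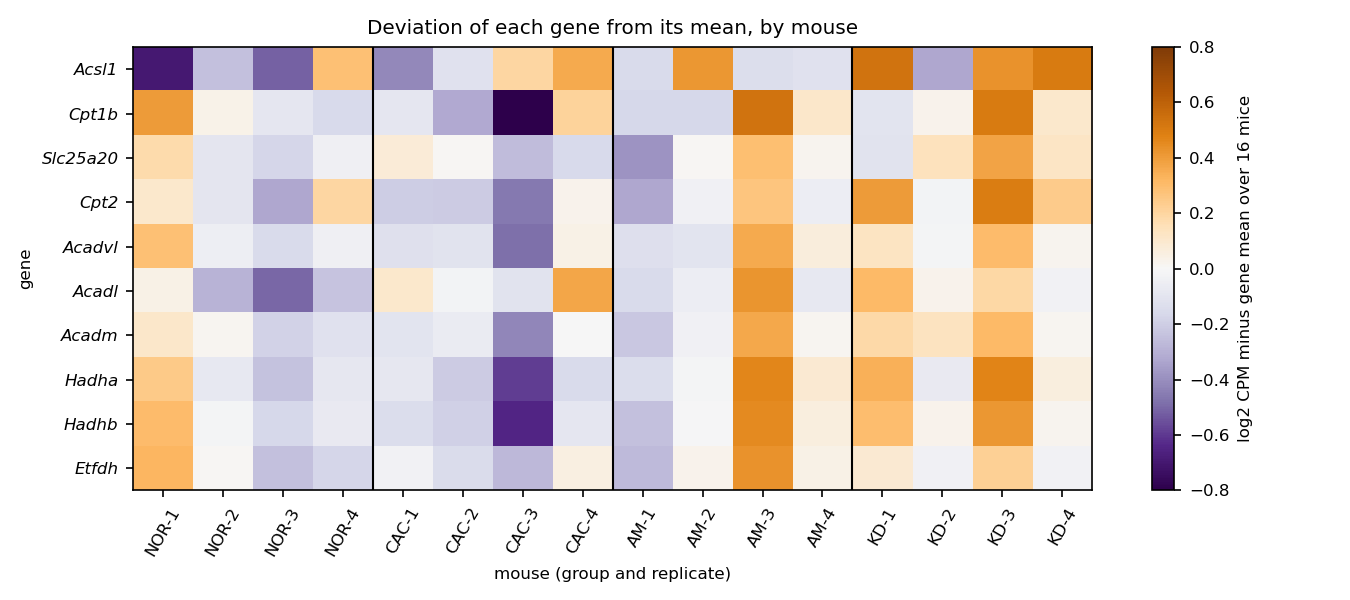
Level of each of the 10 genes (rows) in each of the 16 mice (columns, by group) as log2 CPM minus the gene's mean over the 16 mice, from purple (lower) to brown (higher). AM-3 and KD-3 are brown in all or nearly all rows and CAC-3 is purple in most, and the Acsl1 row departs from the rest.

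Most of the 10 genes varied together from mouse to mouse. As a description over 16 libraries that share their depth and composition, the Pearson correlation of each gene with the mean of the other 9 was 0.95 for Acadm, 0.94 for Hadha and for Hadhb, 0.93 for Acadvl, 0.89 for Cpt2, 0.88 for Etfdh, 0.82 for Cpt1b and 0.75 for Slc25a20. Acadl followed less closely (0.64) and Acsl1 hardly (0.12). The 2 trifunctional protein genes kept a close ratio. The count of Hadha was 1.74 to 2.00 times that of Hadhb over the 16 mice, with a coefficient of variation of 4.03%. Not all other pairs of the 10 were measured in this way, so a closeness particular to this pair is not shown.

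None of the 10 genes passed the test between CAC and NOR muscle. A gene was called at a false discovery rate of 0.05 or less together with a fold change of at least 1.5 in either direction, in edgeR's quasi-likelihood test, and 9.45% of 14666 tested genes were called for CAC vs NOR against 0 of the 10. At an unadjusted p under 0.05 stood 29.1% of all genes and 0 of the 10. The groups did not overlap for 23.3% of all genes and for 0 of the 10. The log2 fold changes ran from -0.29 to 0.32 with a median of -0.15, beside 0.01 over all genes, and 8 of the 10 were below 0. That median depended on single mice and on the scaling: it was -0.05 without CAC-3, -0.04 without NOR-1, -0.20 without CAC-4 and -0.02 on total counts without TMM. The 95% intervals of 6 of the 10 lay within a 1.5-fold change either way and those of all 10 within a 2-fold change. The median was -0.19 over the muscle fibre genes (10 of 12 below 0), 0.12 over the slow fibre genes (3 of 10 below 0) and -0.50 over the fast glycolytic fibre genes (8 of 10 below 0), and their part in these values was not tested. In bulk muscle, fewer fibres and less RNA per fibre cannot be told apart.

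**Figure D2:**
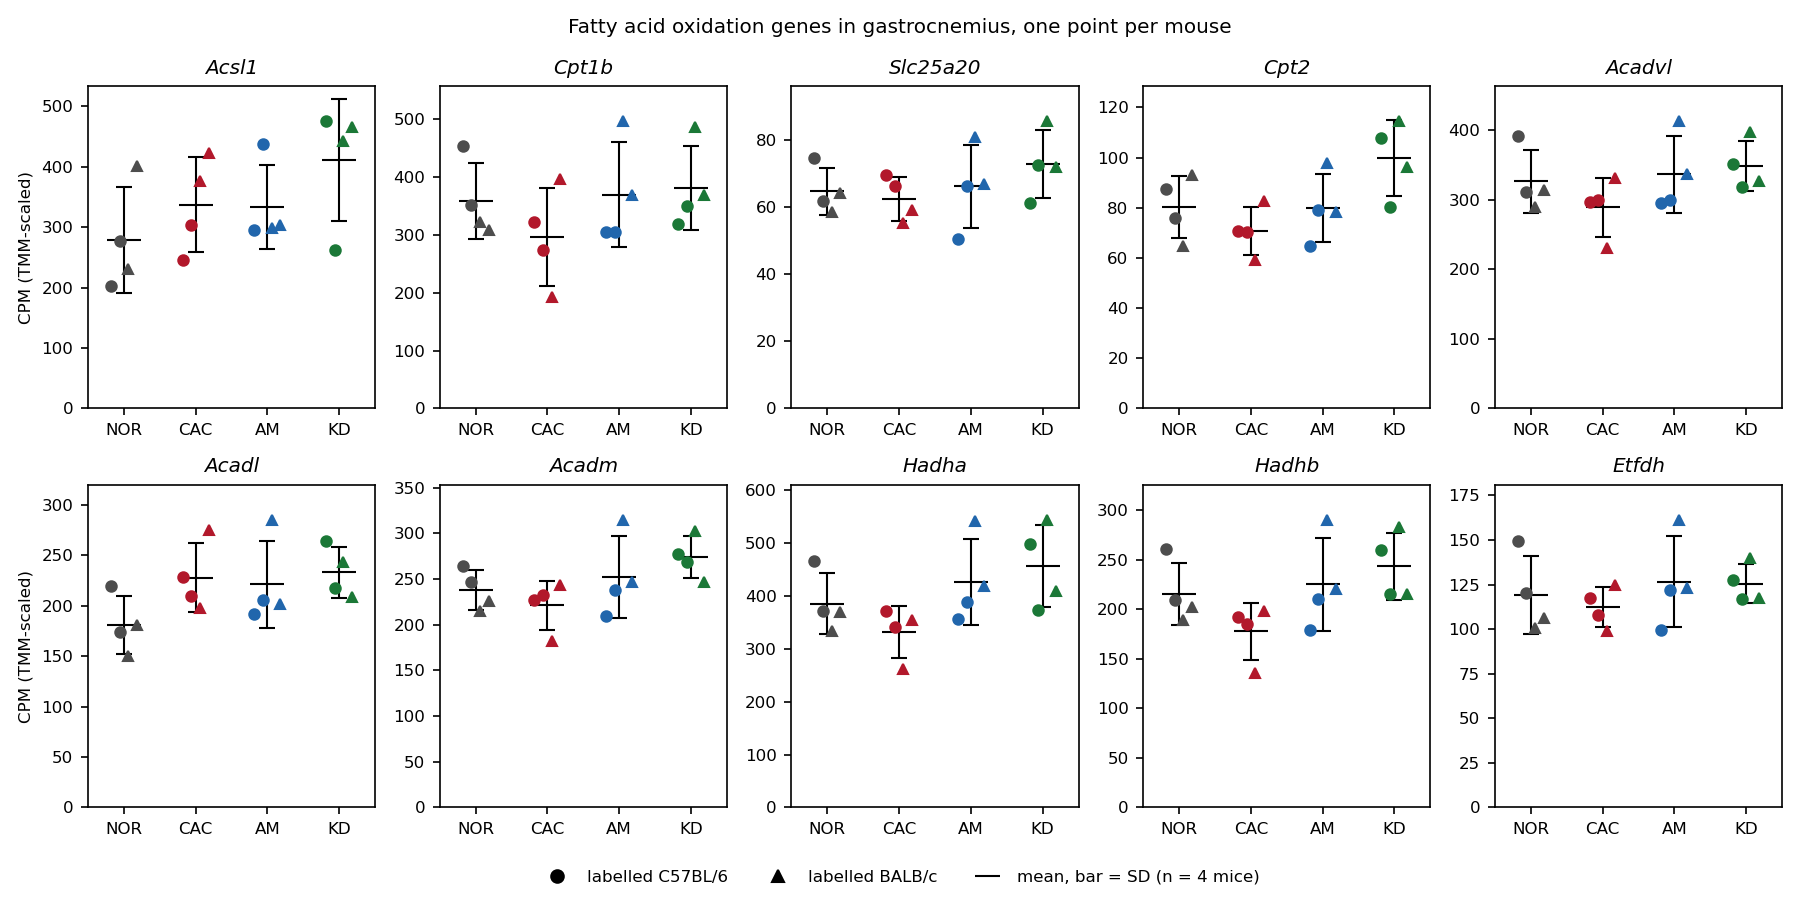
Level (CPM, linear axes from 0) of each of the 10 genes in every mouse of the 4 groups, circles for C57BL/6-labelled and triangles for BALB/c-labelled mice, with the group mean and SD (n = 4). Groups overlap in nearly every panel, and for Acadm, Hadha and Hadhb all 4 KD mice lie above all 4 CAC mice.

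Acsl1 was at 203, 278, 230.0 and 401 CPM in the 4 NOR mice and at 246, 303, 377 and 422 CPM in the CAC mice. The groups overlapped widely, NOR-4 lying above 3 of the CAC mice. The log2 fold change was 0.28 ± 0.241 (SE; 95% interval -0.27 to 0.84; edgeR adjusted p = 0.490), the widest interval of the 10 genes in this comparison. Acsl1 is also abundant in adipocytes, and Adipoq, the adiponectin gene, was at 22.0 to 392 CPM over the mice, with summed levels of 12 adipocyte genes of 966 to 4580 CPM in the NOR mice and 1437 to 5912, 1824 to 5902 and 1365 to 5228 CPM in the CAC, AM and KD mice. With the Adipoq level as a covariate, a setting added after the data were seen, the log2 fold change of Acsl1 was 0.22 ± 0.134 (adjusted p = 0.309).

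Among the carnitine shuttle genes, Cpt1b, which carries the malonyl-CoA-sensitive entry step, was at 453, 352, 322 and 308 CPM in NOR and 322, 274, 193 and 396 CPM in CAC (log2 fold change -0.29, 95% interval -0.81 to 0.23, edgeR adjusted p = 0.452). Cpt2 was at 87.3, 75.9, 64.8 and 93.0 CPM in NOR and 70.5, 70.2, 59.0 and 82.7 CPM in CAC. For both, CAC-3 was the lowest mouse of the 16 and the groups overlapped. Without CAC-3 the log2 fold changes were -0.12 for Cpt1b and -0.11 for Cpt2, without NOR-1 -0.13 and -0.12, and without CAC-4 -0.46 and -0.27. Slc25a20 was at 58.5 to 74.6 CPM in NOR and 55.1 to 69.5 CPM in CAC, and its log2 fold change of -0.06 (SE 0.115) turned positive on total counts (0.07).

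The 3 acyl-CoA dehydrogenases, which take chains of decreasing length, did not share a direction. Acadl was at 219.6, 174, 150.1 and 181 CPM in NOR and 229, 209, 198 and 275 CPM in CAC. All NOR mice but NOR-1 were below every CAC mouse, and NOR-1 was above 2 of them. The log2 fold change was 0.32 ± 0.157 (SE; 95% interval -0.04 to 0.68; edgeR unadjusted p = 0.0724, adjusted p = 0.217), and the exact permutation test of the CPM values, two-sided, gave p = 0.0857, where 4 against 4 mice cannot go below 0.0286. Acadvl was at 392, 311, 289 and 313 CPM in NOR and 296, 299, 230.5 and 332 CPM in CAC. Acadm was at 264, 246, 215 and 225 CPM in NOR and 227, 233, 183 and 243 CPM in CAC. Both overlapped between the groups, with log2 fold changes of -0.18 and -0.11.

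The Acadl difference depended on the setting. It was 0.46 on total counts (adjusted p = 0.0547), where the Acadl levels of the groups no longer overlapped, 0.45 without NOR-1 and 0.22 without CAC-4. Within the labelled strains the log2 fold change of Acadl was 0.16 in C57BL/6 and 0.54 in BALB/c, 2 mice a group each.

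The trifunctional protein genes were lower on average in CAC without passing the test. Hadha was at 467, 372, 334 and 371 CPM in NOR and 371, 341, 261 and 354 CPM in CAC, and Hadhb at 261, 209, 189 and 202 CPM in NOR and 192, 185, 135 and 199 CPM in CAC. The log2 fold changes were -0.23 ± 0.156 and -0.29 ± 0.157 (SE; edgeR adjusted p = 0.270 for Hadhb). They were -0.12 and -0.17 without CAC-3, and -0.10 and -0.15 without NOR-1. CAC-3 was the lowest mouse for both genes. Etfdh, the last step before the respiratory chain, was at 101 to 149 CPM in NOR and 99.0 to 124 CPM in CAC (log2 fold change -0.10 ± 0.150).

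**Figure D3:**
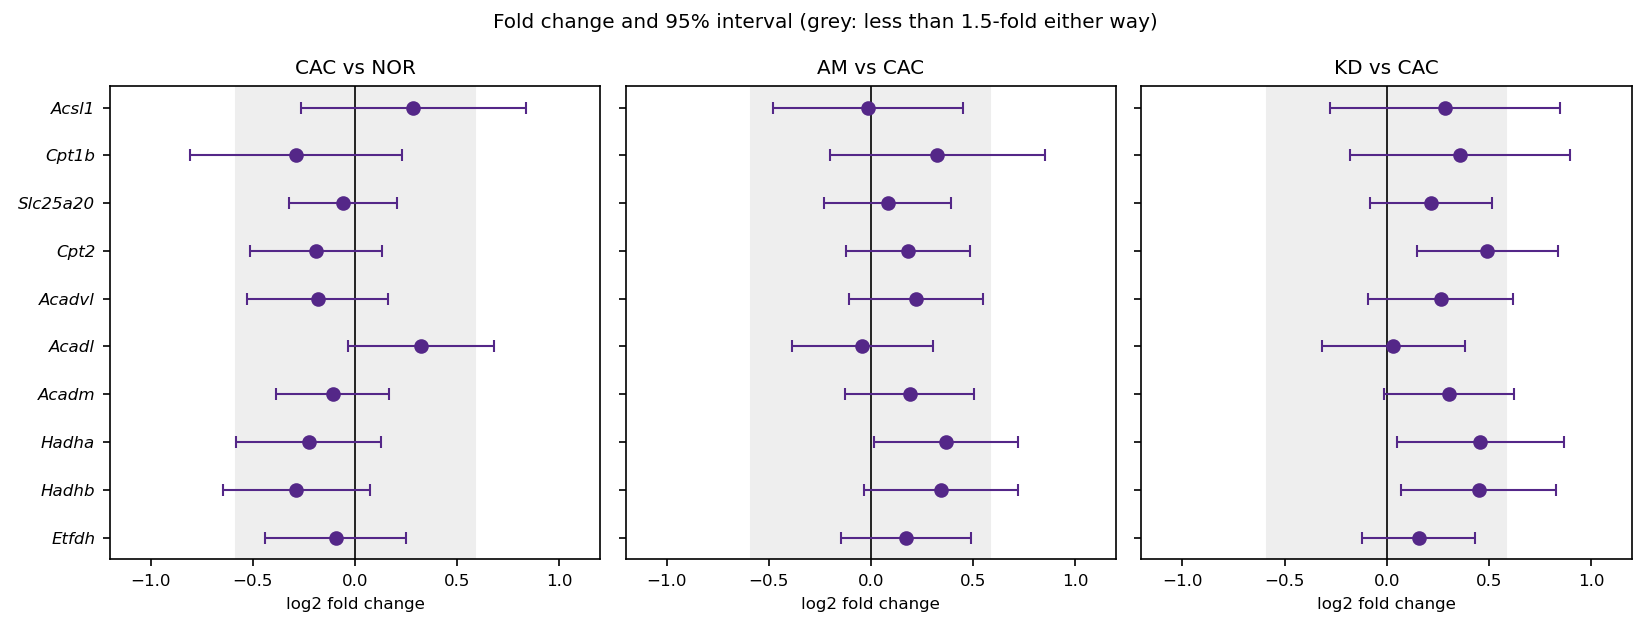
Log2 fold change (horizontal axis) of each of the 10 genes with its 95% interval from edgeR's quasi-likelihood fit, for CAC against NOR and for AM and KD against CAC, with grey marking changes of less than 1.5-fold. All 10 intervals span 0 in the left panel, 9 in the middle panel and 7 in the right panel.

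In AM muscle none of the 10 genes passed the test against CAC. Of 14674 tested genes 3.66% were called, against 0 of the 10, and 21.7% had an unadjusted p under 0.05, against 1 of the 10, Hadha. The groups did not overlap for 15.3% of all genes and 0 of the 10, though Hadha did not overlap on total counts (exact permutation p = 0.0286). The log2 fold changes ran from -0.04 to 0.37 with a median of 0.19 (0.01 over all genes), and 8 of the 10 were above 0. The median was 0.08 without AM-3, the highest mouse for 6 of the 10 genes, 0.12 without CAC-3, 0.21 without the 4 libraries of highest Nnt and 0.27 without AM-1, the library with Alb and Ucp1. By strain label it was 0.03 in C57BL/6 and 0.36 in BALB/c. The 95% intervals of 7 of the 10 lay within a 1.5-fold change. Beside these values, the median log2 fold change was 0.15 over the muscle fibre genes (10 of 12 above 0), -0.09 over the slow fibre genes (4 of 10) and 0.40 over the fast glycolytic fibre genes (8 of 10, 1 called higher), and 1 of 12 adipocyte genes was called lower. The part of these cells or fibres was not tested.

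Hadha was at 357, 389, 542 and 419.7 CPM in AM mice. AM-1 lay below 1 CAC mouse, CAC-1 at 371 CPM, and the other 3 AM mice lay above all CAC mice. The log2 fold change was 0.37 ± 0.154 (SE; 95% interval 0.01 to 0.72; edgeR unadjusted p = 0.0435, adjusted p = 0.213), and the exact two-sided permutation test gave p = 0.0571. The log2 fold change of Hadha was 0.24 without AM-3, 0.28 without CAC-3, 0.30 without the 4 libraries of highest Nnt and 0.44 without AM-1. Hadhb was at 178, 210.2, 290.4 and 220.5 CPM in AM, a log2 fold change of 0.34 (adjusted p = 0.277; 0.21 without AM-3), with the same mice at the ends.

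Cpt1b was at 306, 305, 498 and 369.5 CPM in AM, and Cpt2 at 64.7, 79.2, 97.7 and 78.4 CPM, with log2 fold changes of 0.32 and 0.18 against CAC, and of 0.16 and 0.08 without AM-3. Acadvl was at 295, 299.9, 414 and 336 CPM and Acadm at 209, 238, 315 and 246 CPM, with log2 fold changes of 0.22 and 0.19, the latter 0.07 without AM-3. In each of these 4 genes AM-3 was the highest AM mouse and the AM and CAC ranges overlapped. Acsl1 was at 296, 438, 299 and 303 CPM in AM, a mean log2 fold change of -0.02, AM-2 lying far above the other 3 mice. That mouse also had the highest Adipoq level of the 16, at 392 CPM, and with Adipoq as a covariate the log2 fold change of Acsl1 was -0.09. Acadl was at 192, 206, 286 and 202 CPM (log2 fold change -0.04). Etfdh was at 99.7, 122, 161 and 123 CPM (0.17) and Slc25a20 at 50.4, 66.3, 80.8 and 66.8 CPM (0.08). For Acadl, Etfdh and Slc25a20 too, AM-3 was the highest AM mouse.

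In KD muscle the 10 genes were on average higher than in CAC, but none was called. All 10 log2 fold changes were above 0, with a median of 0.29. The call was rare in this comparison, with 1 gene of 14593 or 0.00685%. At an unadjusted p under 0.05 stood 3 of the 10, Cpt2, Hadha and Hadhb, beside 11.1% of all genes. That count was 0 on total counts and 0 without AM-1, KD-1 and KD-3. For 3 of the 10, Acadm, Hadha and Hadhb, all 4 KD mice lay above all 4 CAC mice, which was so for 3.71% of all genes, while 7.29% did not overlap in either direction. Because the 10 genes move together from mouse to mouse, these are not 3 separate results. On total counts none of the 10 had groups that did not overlap, and the median was 0.18. It was 0.21 without the libraries with Ucp1 or Alb or without Y-linked counts (AM-1, KD-1 and KD-3), which leaves 2 KD mice, 0.24 without CAC-3 and 0.35 without the 4 libraries of highest Nnt. Fibre markers were also higher on average in KD than in CAC, with none called: the median log2 fold change was 0.20 over 12 muscle fibre genes (12 above 0), 0.77 over 10 slow fibre genes (9 above 0) and 0.44 over 10 fast glycolytic fibre genes (10 above 0). The summed slow fibre level was 1501 to 4598 CPM in CAC and 2009 to 8359 CPM in KD, highest in KD-2 and KD-3. The part of fibre content or fibre type in the levels of the 10 genes was not tested.

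Cpt2 was at 108, 80.1, 115 and 96.0 CPM in the KD mice, all but KD-2 above the highest CAC mouse. Its log2 fold change was the largest of the 10, 0.49 ± 0.151 (SE; 95% interval 0.15 to 0.84; edgeR unadjusted p = 0.0107, adjusted p = 0.311), with an exact permutation p of 0.0571. Hadha was at 498, 374, 545 and 410.0 CPM in KD, a log2 fold change of 0.46 ± 0.179 (95% interval 0.05 to 0.87; adjusted p = 0.401). Hadhb was at 259.8, 215, 283 and 215 CPM in KD, a log2 fold change of 0.45 ± 0.167 (0.07 to 0.83; adjusted p = 0.379). Acadm was at 277, 268, 302 and 247 CPM in KD, a log2 fold change of 0.30 (-0.01 to 0.62; adjusted p = 0.467). For Acadm, Hadha and Hadhb the exact two-sided permutation test gave p = 0.0286, the smallest that 4 against 4 mice allow and not adjusted for the 10 genes. Without KD-1 and KD-3 the log2 fold changes were 0.32 for Cpt2, 0.24 for Hadha, 0.28 for Hadhb and 0.22 for Acadm.

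The other 6 genes overlapped between KD and CAC. Acsl1 was at 476, 262, 442 and 466 CPM in KD, so that KD-2 lay well below the other 3 mice (log2 fold change 0.28). Adipoq was at 310, 33.4, 38.3 and 254 CPM in the same 4 mice, its part in the low Acsl1 level of KD-2 was not tested, and with Adipoq as a covariate the log2 fold change of Acsl1 was 0.27. Cpt1b was at 319, 349, 486 and 369 CPM (log2 fold change 0.36), Slc25a20 at 61.2, 72.6, 85.7 and 71.8 CPM (0.22) and Acadvl at 352, 318, 397 and 326 CPM (0.26). Etfdh was at 128, 117, 139.8 and 118 CPM (0.16). Acadl, at 265, 218, 243 and 209 CPM in KD, had the smallest log2 fold change of the 10, 0.03, and its sign turned on total counts (-0.07).

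Against NOR, the AM and KD groups also showed no called gene among the 10. No gene of the whole table was called in AM vs NOR, KD vs NOR or AM vs KD (0% each by edgeR), where 9.19%, 3.54% and 1.11% of all genes had an unadjusted p under 0.05. Of the 10 genes 0, 1 and 0 did, the one being Acadl in KD vs NOR with a log2 fold change of 0.37 (unadjusted p = 0.0378, adjusted p = 0.999). By DESeq2 and the other settings the whole table gave 0 to 70, 0 to 31 and 0 to 1 calls, and none fell on the 10 genes. The median log2 fold change of the 10 was 0.08 for AM vs NOR, but -0.06 without AM-3, 0.16 without AM-1, 0.17 without NOR-1, 0.04 without the 4 libraries of highest Nnt, -0.20 in C57BL/6 and 0.36 in BALB/c. It was 0.19 for KD vs NOR, with 0.13 without KD-3, 0.04 in C57BL/6 and 0.39 in BALB/c. For AM vs KD it was -0.10, with -0.23 without AM-3, -0.02 without AM-1, -0.21 in C57BL/6 and 0.03 in BALB/c. Without AM-1, KD-1 and KD-3 the median of KD vs NOR was 0.08 and that of AM vs KD turned to 0.11. No difference between the labelled strains passed the test either: the interaction of strain and group was called for 0 of the 10 genes and 0 genes in all, in each of the 3 main comparisons. Its lowest unadjusted p among the 10 was that of Acsl1 in AM vs CAC, 0.0239 (adjusted p = 0.356), where the log2 fold change was 0.43 in C57BL/6 and -0.43 in BALB/c.

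Relative to the other 9 genes, Acadl was higher in the CAC mice than in the mice of the other groups. The relative level of a gene was taken as its log2 level minus the mean log2 level of the other 9, which cancels library scaling and the common movement of the genes. This measure was chosen after the values were seen, so it is given without a test. The relative level of Acadl was 0.01, -0.13, -0.17 and -0.11 in the NOR mice and 0.33, 0.23, 0.42 and 0.44 in the CAC mice. It was 0.18, 0.04, 0.19 and -0.00 in AM and 0.22, 0.15, -0.10 and -0.04 in KD. All 4 CAC mice were above all 4 NOR mice, and above all AM and all KD mice. Differences of group means were 0.45 for CAC minus NOR (0.34 in C57BL/6 and 0.57 in BALB/c), -0.25 for AM minus CAC and -0.30 for KD minus CAC. Without CAC-3 they were 0.43, -0.23 and -0.28, without the 4 libraries of highest Nnt 0.42, -0.30 and -0.32, and without the libraries with Ucp1, Alb or no Y-linked counts the last 2 were -0.28 and -0.30, each still without overlap. These comparisons share the CAC mice. As a background, all other genes with at least 10 counts in every library of a comparison were taken relative to the mean of all 10 genes. Of these, 11.6% were higher in all CAC than in all NOR mice. Lower in all AM than in all CAC mice were 12.2%, and lower in all KD than in all CAC mice 13%, so a gap of this kind is not rare in the table.

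**Figure D4:**
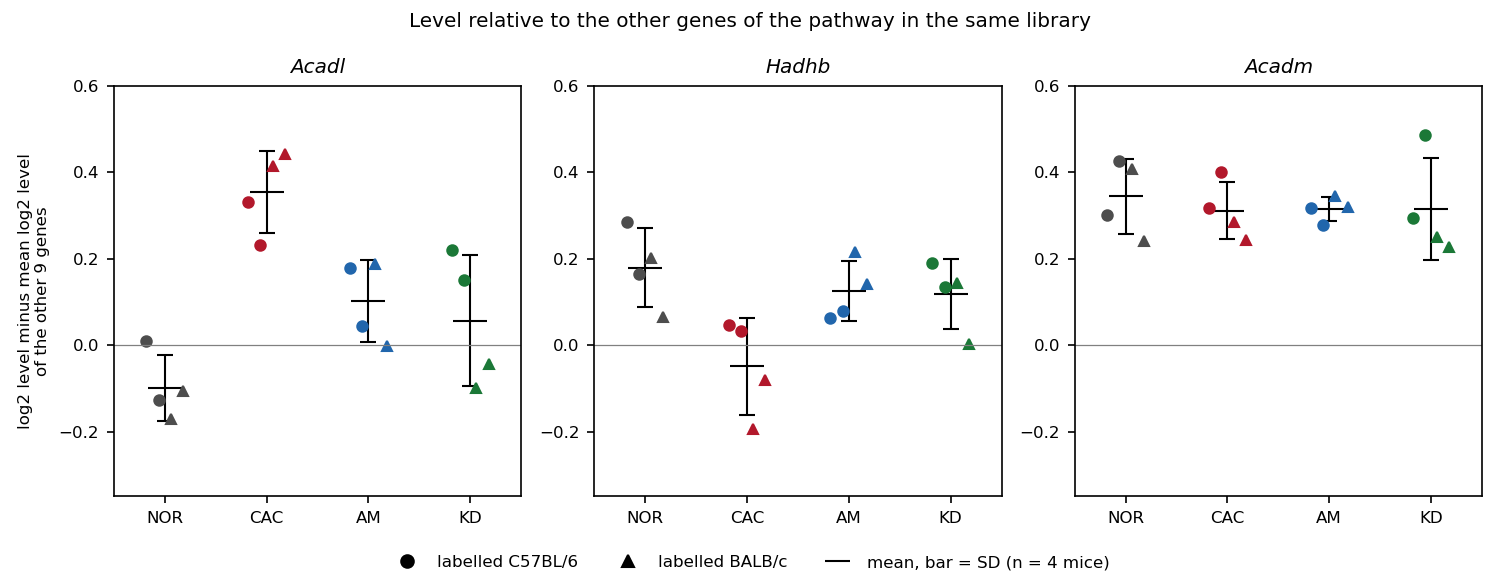
Relative level (log2 level minus the mean log2 level of the other 9 genes) of Acadl, Hadhb and Acadm in every mouse by group, circles for C57BL/6-labelled and triangles for BALB/c-labelled mice, with the group mean and SD (n = 4). For Acadl the CAC mice lie between 0.23 and 0.44, above all mice of the other groups, while the 4 groups overlap for Acadm.

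Plain ratios of counts express the same Acadl values in another way. For every count of Acadvl there were 0.560, 0.560, 0.519 and 0.578 counts of Acadl in the NOR mice and 0.773, 0.701, 0.858 and 0.831 in the CAC mice. The ratio was 0.651, 0.686, 0.691 and 0.599 in AM and 0.752, 0.685, 0.613 and 0.640 in KD. Group means were 0.554 ± 0.025 (SD, n = 4), 0.791 ± 0.070, 0.657 ± 0.042 and 0.672 ± 0.061, so that CAC stood above NOR and AM without overlap, while KD-1 lay within the CAC range. The ratio of Acadl to Acadm was 0.697 to 0.833 in the NOR mice and 0.900 to 1.13 in the CAC mice, with 0.819 to 0.916 for AM and 0.804 to 0.955 for KD. Of the 45 pairs among the 10 genes, 10 had ratios that did not overlap between CAC and NOR, and Acadl was in 8 of them. In AM vs CAC it was in 6 of 9 such pairs, and in KD vs CAC in 3 of 7, as many as Hadhb and Etfdh. Pairs that hold Acadl all reuse the same Acadl values, and no share over other gene pairs was taken. Apart from Acadl, Hadhb was relatively lower in all CAC than in all NOR mice (mean difference -0.23) and relatively higher in all AM than in all CAC mice (0.17), Cpt2 relatively higher in all KD than in all CAC mice (0.21) and Etfdh relatively lower (-0.16). Relative to the mean of all 10 genes, 8.17% of all other genes were lower in all CAC than in all NOR mice. Against all CAC mice, 3.06% were higher in all AM mice, and 1.05% were higher and 13% lower in all KD mice. In either direction 19.8%, 15.3% and 14.1% of genes did not overlap in the 3 main comparisons.

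The 10 genes were also set beside the citric acid cycle, which takes up the acetyl-CoA, as a description without a test and without a background share for other gene sets. The mean log2 level of the 10 minus that of 18 citric acid cycle genes was -1.04, -0.96, -1.10 and -0.91 in NOR and -0.66, -0.74, -0.40 and -0.61 in CAC. It was -0.88, -0.71, -0.69 and -0.95 in AM and -0.58, -0.81, -0.78 and -0.77 in KD. CAC lay above NOR without overlap, by 0.40 (0.33 without CAC-3), and the AM and KD mice overlapped with CAC, although the KD mice lay below the CAC mice without overlap once the libraries of highest Nnt (difference -0.19) or those with Ucp1, Alb or no Y-linked counts (-0.19) were left out. The citric acid cycle genes had a median log2 fold change of -0.55 in CAC vs NOR, with 17 of 18 below 0, and 4 of the 18 fell beyond the call against 5.13% of all genes: Idh3a, an isocitrate dehydrogenase subunit, with -1.02 (adjusted p = 0.0107), citrate synthase Cs with -0.64 (0.0490), and the succinyl-CoA ligase subunits Sucla2 with -0.65 and Suclg1 with -0.62. The calls of Cs, Sucla2 and Suclg1 were lost when any 1 mouse was left out. The number called lower was still 4 of 18 without CAC-4, with other genes than these 3 beside Idh3a, and 1 without any other mouse, and over all settings it was 0 to 10. In AM vs CAC the median was 0.40 and in KD vs CAC 0.46, with 0 of 18 called in either.

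**Figure D5:**
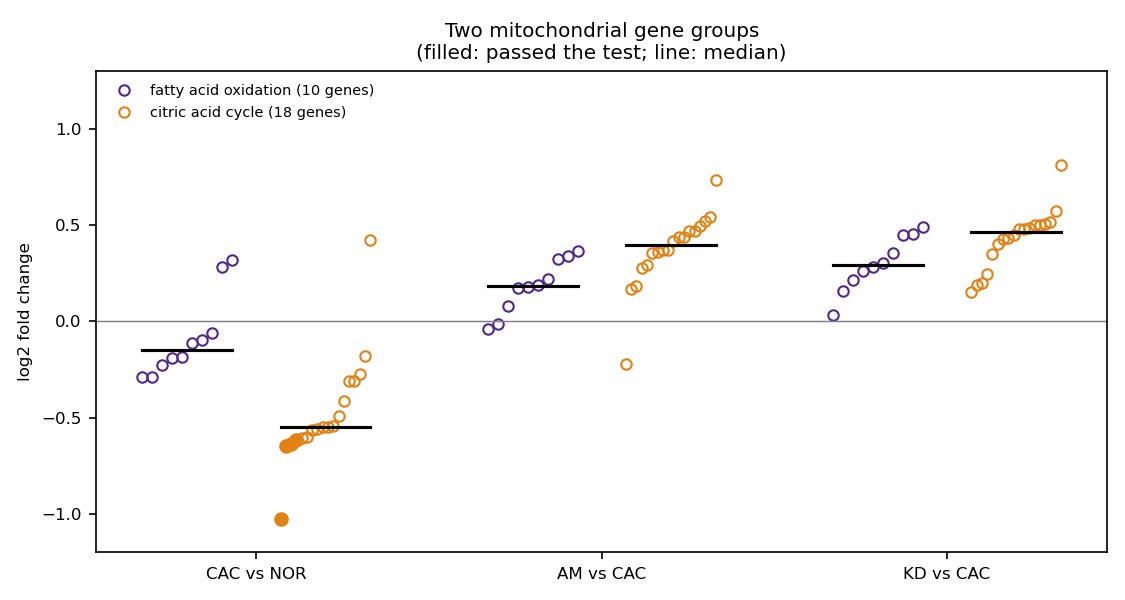
Log2 fold change of each of the 10 fatty acid oxidation genes (purple) and 18 citric acid cycle genes (orange) for CAC against NOR and for AM and KD against CAC, in order of size within each set, filled where the test was passed and with a line at the median. From left to right the medians are -0.15 and -0.55, then 0.19 and 0.40, then 0.29 and 0.46.

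Of 75 other fatty acid oxidation genes in the table, drawn from lists of uptake and activation, carnitine, malonyl-CoA control, other mitochondrial steps, peroxisomal oxidation, regulators and PPAR target genes, 74 were tested. In CAC vs NOR 5 rose and 5 fell, against 4.32% and 5.13% of all genes, with a median of 0.05. This split depended on the scaling: on total counts 10 rose and 3 fell, with a median of 0.18, and over all genes the share of calls that were higher went from 45.7% to 60.8%. Acot1, a cytosolic acyl-CoA thioesterase, rose from 2.37 ± 0.316 to 11.4 ± 3.72 CPM (SD, n = 4; log2 fold change 2.27, adjusted p = 0.00272). Acsl6, a relative of Acsl1, rose from 33.7 ± 5.59 to 63.7 ± 3.98 CPM (0.91, adjusted p = 0.00684). Abcd2, a peroxisomal fatty acyl-CoA transporter, fell from 74.5 ± 22.5 to 30.1 ± 4.15 CPM (-1.30, adjusted p = 0.00612). These 3 calls and that of Idh3a held when any 1 mouse was left out, and none of them was made within a strain alone, with 2 mice a group.

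The other calls in that comparison were lost without 1 or another mouse. Lpin1, a phosphatidate phosphatase and transcriptional coactivator, was higher by 0.73 on the log2 scale, as were the lipid droplet gene Plin5 by 0.73 and Hsd17b10, a hydroxyacyl-CoA dehydrogenase, by 0.63. Acads, the short-chain acyl-CoA dehydrogenase and thus the family member below Acadm in chain length, was at -0.63, the estrogen-related receptor gene Esrra at -0.73, the coactivator gene Ppargc1b at -0.69 and the retinoid receptor gene Rxrg at -1.02. By list, the counts called higher and lower in CAC vs NOR were 2 and 0 of 12 uptake and activation genes, 0 and 0 of 6 carnitine genes, 0 and 0 of 3 malonyl-CoA control genes, 1 and 1 of 18 other mitochondrial genes, 0 and 1 of 13 peroxisomal genes, 1 and 3 of 14 regulators and 1 and 0 of 9 PPAR targets.

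In AM vs CAC 2 of the 74 rose and 2 fell, against 1.63% and 2.03% of all genes. Acsl6 fell from 63.7 to 33.0 ± 5.37 CPM (log2 fold change -0.95, adjusted p = 0.00952), in all 8 fits that left out 1 mouse, though not with the replicate number as a block (adjusted p = 0.079) and without the 4 libraries of highest Nnt. Cpt1a, the liver form of carnitine palmitoyltransferase 1, rose from 31.9 ± 7.29 to 59.0 ± 10.2 CPM (0.89, adjusted p = 0.0347), as did Ppargc1b (0.88), and Lpin1 fell (-0.67). The calls of these 3 were lost in most of the fits that left out 1 mouse. In KD vs CAC none of the 74 was called.

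Markers of other cell types differed between the CAC and NOR mice. The summed level of 7 erythrocyte genes was 1003 to 1375 CPM in NOR and 3648 to 8722 CPM in CAC, 5 of the 7 called higher. The summed neutrophil level was 7.05 to 40.9 CPM in NOR and 113 to 247 CPM in CAC, 3 of 10 called higher. Of the other lists, 3 of 10 endothelial genes and 1 of 12 adipocyte genes were called higher, 1 of 4 tested brown adipocyte genes and 1 of 10 fast glycolytic fibre genes lower, and none of the muscle fibre, slow fibre, lymphocyte, macrophage and hepatocyte genes. The part of blood cell RNA in the levels of the 10 genes was not tested. Out of 13180 genes, Prkaca (Pearson r = 0.909), a protein kinase A catalytic subunit, followed the mean of the 10 most closely in CPM over the 16 libraries. Only the 10 genes themselves were left out of this ranking. Next were Acat1 (0.901), the mitochondrial acetoacetyl-CoA thiolase, Tmem65 (0.887), Supv3l1 (0.885) and Fabp3 (0.883), the muscle fatty acid-binding protein. These are descriptions over libraries that share groups and composition, and no p is given.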

How the data were processed

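Gastrocnemius poly(A) RNA of 16 mice was sequenced. The authors deposited raw read counts per gene and FPKM (fragments scaled by transcript length and depth) for each library. The submitters' notes name fastp, Bowtie2, HISAT2 and StringTie 1.3.1, and the builds mm9 and GRCm38; the roles of the builds and the counter are not given in the sources used here. The deposited counts were whole numbers, and the deposited FPKM served to set levels of different genes side by side and, as an alternative without a test, for ratios of group means. All mapped columns were used.

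Genes were tested in edgeR 4.0.16 (R 4.3.3) by the quasi-likelihood F test after TMM scaling, using the 8 libraries compared and no covariate; filterByExpr removed low genes (min.count 10, min.total.count 15). P-values were adjusted by Benjamini-Hochberg over all genes tested. Calls had an adjusted p not above 0.05 together with a change of 1.5-fold or more either way, the limits of the study, whose tool (NOISeq) was not installed. Single levels were compared by the exact permutation test. Each group joins 2 models (strain with tumor line), so the spread behind a p-value includes the difference between the models.

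The 10 genes and all gene lists were chosen with earlier results of these data known, and support no finding by their choice. Genes named were the 10, any listed pathway gene called in a main comparison, and the genes outside the 10 most correlated with them. Positions are GENCODE M21 (GRCm38) and promoters RefSeq (GRCm38.p6). Alternatives were scaling in edgeR (total counts, upper quartile, relative log expression) and the tests of DESeq2 1.42.0 and limma-voom (limma 3.58.1). Further ones were no count filter, strain as a covariate or alone, a replicate block, all 16 libraries in 1 fit and leaving out each mouse. Settings added after seeing the data left out the 4 libraries of highest Nnt or those with Ucp1, Alb or no Y-linked counts, took Adipoq as a covariate, or took CPM of total counts. On simulated counts for CAC vs NOR with 14480 genes, 38.8% of genes changed 2-fold and 78.5% of those changed 4-fold were found, and 1.54% of those changed 1.5-fold. For AM vs CAC (14464 genes) the shares were 22.4%, 70.8% and 0%, and for KD vs CAC (14395 genes) 10.4%, 51.5% and 1.49%.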

Additional observations from a re-analysis of the deposited data

Results flagged for a closer look

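Among 44 sets of 4 mice that were screened with Dixon's criterion, which chance passes in about 1 of 20 sets, 3 had a mouse far from the other 3. Acsl1 was at 438 CPM in AM-2, while the other AM mice were at 296 to 303 CPM. Acsl1 was at 262 CPM in KD-2, while the other KD mice were at 442 to 476 CPM. Acadl was at 286 CPM in AM-3, while the other AM mice were at 192 to 206 CPM. AM-3 also had the highest level of 5 of the other 9 genes.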

How the results depend on the processing

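None of the 10 genes was called in any of the 6 comparisons under any alternative run. The lowest adjusted p among them was 0.0547 for CAC vs NOR (Acadl, total counts), 0.134 for AM vs CAC and 0.0787 for KD vs CAC (both DESeq2). Over all genes the calls ranged from 0 to 2048 for CAC vs NOR, 0 to 1120 for AM vs CAC and 0 to 332 for KD vs CAC (332 by DESeq2, 145 with all 16 libraries in 1 fit); without any 1 mouse they were 728 to 1272, 212 to 447 and 0 to 1. Total counts in place of TMM shifted the median of all genes by 0.13 in CAC vs NOR and by -0.11 in KD vs CAC.

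The replicate numbers were not taken to pair the mice: deviations of same-numbered mice correlated at -0.19 to 0.60 in CAC vs NOR, -0.45 to 0.05 in AM vs CAC and -0.64 to -0.25 in KD vs CAC, and in CAC vs NOR 1 mouse correlated best with its own number. With the replicate block 0 of the 10 genes were called in any comparison, and over all genes 1140 in CAC vs NOR and 0 in the others.

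In the 3 main comparisons the sign of a log2 fold change turned in these cases, none of them called, and the cause was not tested; in AM vs NOR it turned in 31 of 240 values, in KD vs NOR in 7 and in AM vs KD in 27. For CAC vs NOR, total counts gave 0.068 for Slc25a20, 0.041 for Etfdh and 0.014 for Acadm, and FPKM ratios gave 0.0677, 0.0407 and 0.0139; Etfdh was at 0.14 in BALB/c alone. Without 1 mouse Slc25a20 ran from -0.11 to 0.042 and Etfdh from -0.17 to 0.058. For AM vs CAC, Acsl1 was at 0.029 by upper quartile, 0.012 by voom, 0.00373 with strain, 0.43 in C57BL/6, 0.24 without high Nnt, 0.030 without AM-1, and -0.17 to 0.10 without 1 mouse. In C57BL/6 alone Slc25a20 was at -0.20, Acadm at -0.025 and Etfdh at -0.012. Acadl was at 0.00569 by upper quartile, 0.021 in BALB/c, 0.017 without AM-1, and -0.18 to 0.059 without 1 mouse, where Slc25a20 was at -0.021 to 0.19. For KD vs CAC, Acadl was at -0.0714 on total counts, -0.0715 in FPKM ratios, -0.092 in BALB/c, -0.097 without KD-1 and KD-3, and -0.041 to 0.14 without 1 mouse. The 95% interval reached beyond a 1.5-fold change for 4, 3 and 7 of the 10 genes in the 3 main comparisons.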
